A study of Mus musculus with 6 samples.

Results

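Of the genes that make cholesterol, sense it and move it, 26 were followed here: 18 enzymes of the synthesis chain, 4 genes of the SREBP2 control circuit and 4 genes of sterol uptake, transport and esterification. They were chosen by name, and all 26 were found among the 17441 genes of the deposited table; 25 had enough reads to be tested. The expression values come from RNA-seq of 6 mouse liver samples, called livers here. In 3 of them the genotype label is a whole-body knockout of Nek7 that tamoxifen induces (iKO), and in 3 it is WT. All 6 livers, WT included, were sampled 10 days after tamoxifen, and no label names acetaminophen, which the series title does. No source used here gives the strain, age, sex, Cre driver or hour of collection. The protein kinase NEK7 acts in spindle assembly and as a partner of the NLRP3 inflammasome.

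Cholesterol is built from acetyl-CoA through mevalonate, isoprenoids, squalene and lanosterol. Its synthesis genes are switched on together by the transcription factor SREBP2, which the escort protein SCAP carries out of the endoplasmic reticulum when sterol is scarce. The INSIG proteins hold SCAP back when sterol is plentiful, and they also help to remove the rate-limiting reductase of the pathway. Insig1 is itself a target of SREBP, whereas Insig2 is controlled separately in liver, where insulin and fasting are known to act on it.

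Libraries held between 18139500 and 19912000 expected counts (estimated reads per gene), and no pair agreed within sampling noise. Expression is given as CPM, counts scaled to a common library total after TMM normalization, and fold changes are iKO over WT on the log2 scale. Nek7 itself stood at 50.2, 32.8 and 31.0 CPM in livers labelled iKO, against 55.5, 40.5 and 36.3 CPM in WT livers (log2 fold change -0.22 with an SE of 0.23; adjusted p = 0.541, edgeR quasi-likelihood F test). The gene total does not set the groups apart, so the livers are called by their label. WT 2 and WT 3 had 0 counts of the Y-linked genes Ddx3y and Kdm5d, while the libraries labelled iKO and WT 1 had between 573 and 1113. Below, Y-linked reads are those of Ddx3y and Kdm5d. Of the other Y-linked markers, Eif2s3y had 5.99 and 4 counts in WT 2 and WT 3, against 212 to 699 elsewhere. Uty did not split the libraries so, with 401 and 235 counts in WT 2 and WT 3 and 264 to 621 elsewhere. The labels give no sex. Cyp2b13, a female-biased gene, read 269 and 293 CPM in WT 2 and WT 3 and at most 0.590 CPM elsewhere. Mup20, a male-biased gene, read 162 and 111 CPM in WT 2 and WT 3, and 5896 to 7440 CPM elsewhere. Male-biased Elovl3 did not split them so, at 2.33 CPM in iKO 3 against 2.66 and 4.59 CPM. Sex and label thus cannot be fully told apart in these groups. The called members are therefore also given from the 4 libraries with Y-linked reads, where WT 1 is the single WT library. That library is then assumed to vary as the 3 others do. The clock gene Dbp stood at 99.8, 141 and 144 CPM in livers labelled iKO, against 0.797, 1.24 and 2.27 CPM in WT, and Arntl at 3.86, 2.63 and 1.56 CPM against 31.3, 32.4 and 30.5 CPM. Of 10 clock genes read, 5 were called higher and 3 lower, beside 7.31% and 8.07% of all tested genes. Nr1d1 (251, 202 and 55.9 CPM against 60.0, 84.4 and 80.8 CPM) and Clock were not called, and their groups overlapped. Of the markers of other liver cells, 7 of 8 for stellate cells were called lower, with summed levels of 142 to 144 CPM in livers labelled iKO against 290 to 431 CPM in WT. Of the Kupffer cell markers 6 of 7 were called lower (147 to 207 CPM against 264 to 475 CPM), and of the sinusoidal endothelial markers 3 of 8 (67.6 to 139 CPM against 159 to 252 CPM). Of 6 neutrophil markers 4 were called lower (10.2 to 31.2 CPM against 25.0 to 115 CPM). Cholangiocyte markers had 0 of 6 called (73.1 to 414 CPM against 120 to 203 CPM). Hepatocyte markers summed to 108181 to 126870 CPM against 111263 to 119152 CPM, with 2 of 8 called higher (Tat and Hnf4a). In bulk tissue fewer cells of a type and less RNA per cell cannot be told apart. With the hour of collection unknown, clock phase and label cannot be told apart in these groups. The part of clock phase and cell makeup in the results below was not tested.

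Of the 25 tested members 4 were called lower in livers labelled iKO and 0 higher at an adjusted p of 0.05 by edgeR (1 was higher at an unadjusted p under 0.05). Over all 13160 tested genes, 8.07% were called lower and 7.31% higher. DESeq2 called the same number lower and 1 higher, Tm7sf2, where it called 8.60% of all genes lower and 9.39% higher. The 4 members were Insig1 and Insig2 of the control circuit, and Sc5d and Pmvk of the synthesis chain. The median log2 fold change was -0.19 over the members and -0.02 over all tested genes. In 4 members every liver labelled iKO was below every WT liver, the same 4 that were called, and in 1, Tm7sf2, every one was above. The share of all tested genes in those positions was 19.2% and 19.8%.

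**Figure D1:**
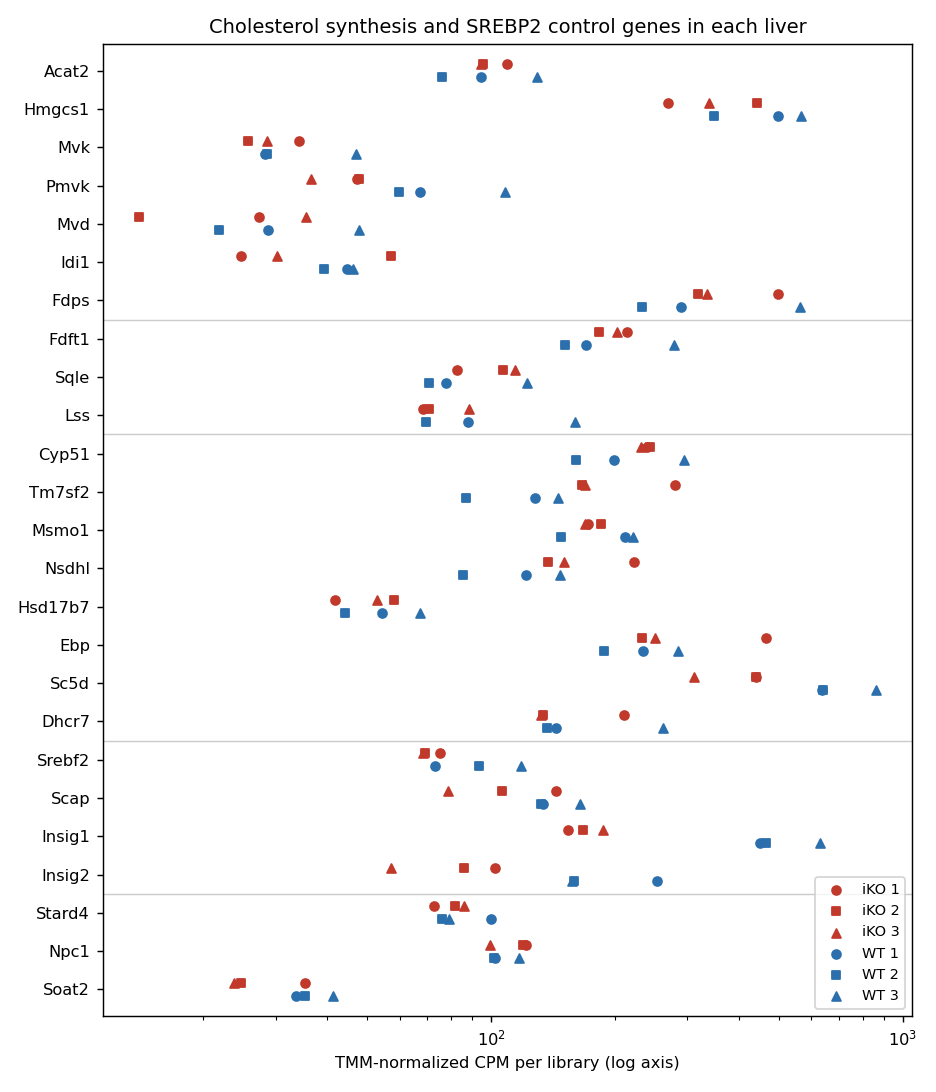
TMM-normalized CPM (log axis) of the 25 tested members, 1 point per library, with livers labelled iKO in red above WT livers in blue. Lines separate the roles: acetyl-CoA to isoprenoids, squalene and lanosterol, lanosterol to cholesterol, SREBP2 control and sterol handling. Red and blue points are fully apart for Pmvk, Tm7sf2, Sc5d, Insig1 and Insig2, and WT 3 (blue triangle) is the highest library for 18 genes.

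**Figure D2:**
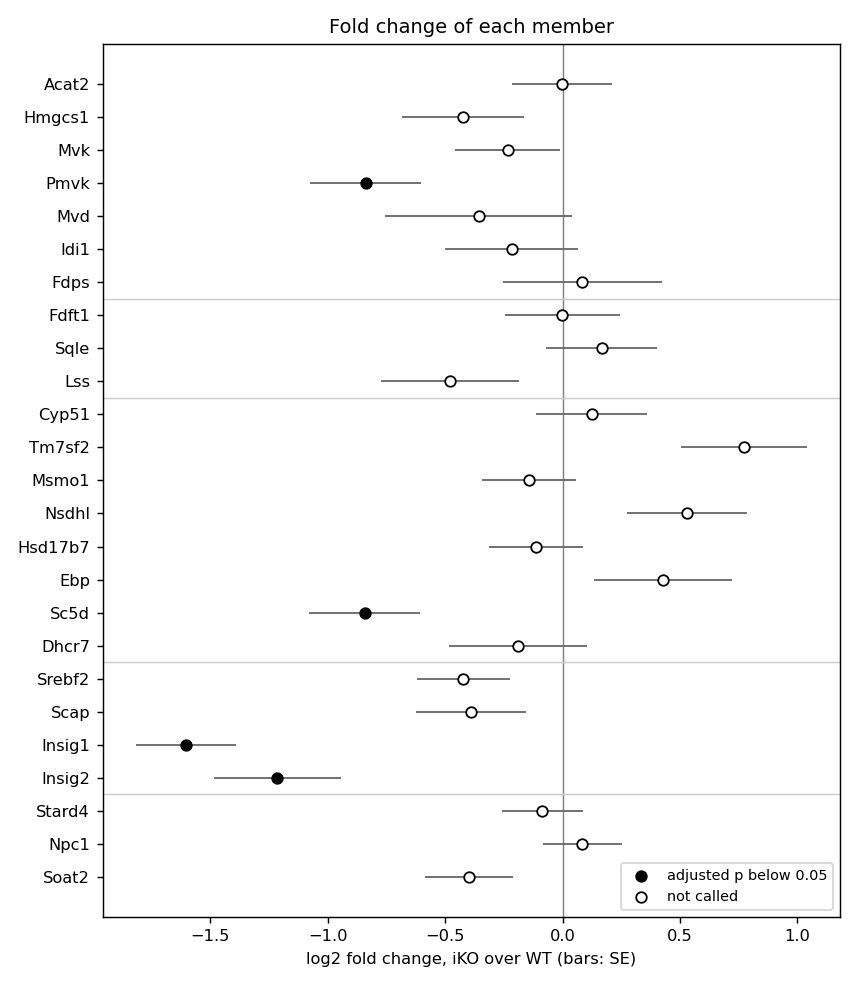
Log2 fold change of each tested member (x axis, iKO over WT; bars are the SE) in the same order. Filled points, the 4 members with an adjusted p below 0.05, run from -1.60 for Insig1 to -0.84 for Pmvk; open points lie between -0.48 and 0.77.

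The control circuit held the 2 largest differences among the tested members, and the median log2 fold change of its 4 genes was -0.82, against -0.02 over all tested genes. Insig1 (gene ID 231070), the sterol-sensitive brake on SCAP, read 154, 168 and 187 CPM in the livers labelled iKO, against 450, 465 and 630 CPM in WT. The highest liver labelled iKO was thus well below the lowest WT liver. Means were 169.6 ± 16.3 and 515 ± 99.4 CPM (SD, n = 3 each), which is -1.60 ± 0.21 (SE) as log2 fold change (edgeR adjusted p = 0.00251). Insig1 thus stood at 32.9% of its WT level (95% interval 23.6% to 45.8%). The call held whichever library was left out (adjusted p at most 0.0137, without iKO 2). With WT 1 alone as the WT library the log2 fold change was -1.40, with an adjusted p of 0.0787, and with a model term for Y-linked reads it was -1.41 (adjusted p = 0.0564).

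Insig2 (gene ID 72999), the paralog with the same retention role, read 102, 86.1 and 57.3 CPM in the livers labelled iKO, against 253, 159 and 157 CPM in WT. Again the groups did not overlap, although here WT 1, not WT 3, was the highest library. Means were 81.9 ± 22.8 and 190.0 ± 54.9 CPM (SD, n = 3 each), which is -1.21 ± 0.27 (SE) as log2 fold change (edgeR adjusted p = 0.0191), or 43.1% of WT (95% interval 28.3% to 65.5%). The difference was larger, -1.62, with WT 1 alone as the WT library (adjusted p = 0.0579). With the term for Y-linked reads it was -1.63 (adjusted p = 0.0448), and Insig2 was then the 1 member called lower, where 0.805% of all tested genes were called lower and 0.593% higher. The call ended without iKO 2 (adjusted p = 0.0549), iKO 3 (0.0628) or WT 2 (0.0513).

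The transcription factor and its escort were not called. Srebf2 (gene ID 20788), which encodes SREBP2, read 75.1, 69.1 and 68.5 CPM in the livers labelled iKO, against 73.1, 93.4 and 118 CPM in WT. WT 1 lay inside the range of the livers labelled iKO, and WT 2 and WT 3 above it. As log2 fold change the difference was -0.42 ± 0.20 (SE; edgeR adjusted p = 0.168), with a 95% interval of 55.0% to 101% of WT, and it was -0.04 with WT 1 alone. Scap (gene ID 235623) read 144, 107 and 78.5 CPM in the livers labelled iKO, against 133, 132 and 165 CPM in WT, with overlap between the groups (log2 fold change -0.39 ± 0.23 SE; adjusted p = 0.273). Limma on log2(TPM + 1) called Scap lower, as it did 1058 of all 13160 tested genes. With the transcript length offset the log2 fold changes of Srebf2 and Scap were -0.20 and -0.18.

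**Figure D3:**
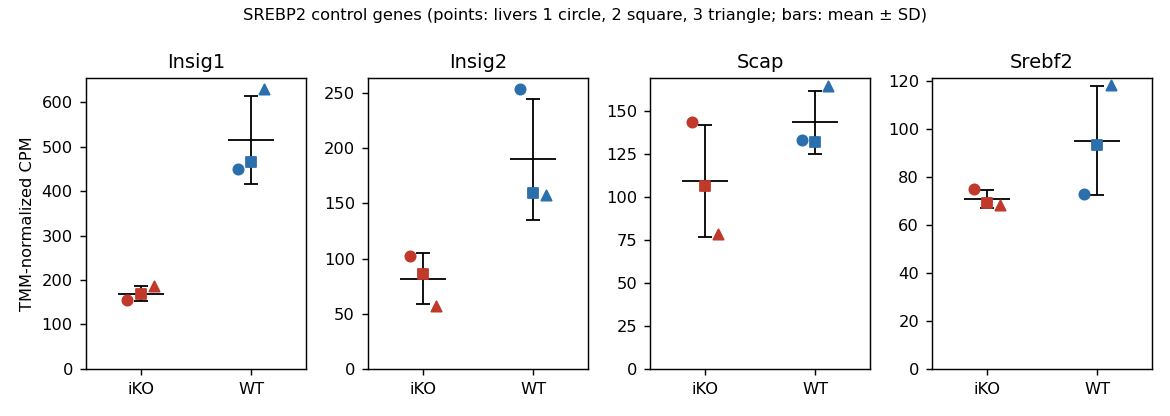
TMM-normalized CPM of the 4 control genes in livers labelled iKO (left, red) and WT livers (right, blue); each point is 1 liver and the bars give the mean ± SD of 3. Insig1 and Insig2 separate the groups, 154 to 187 against 450 to 630 CPM and 57.3 to 102 against 157 to 253 CPM, whereas Scap and Srebf2 overlap.

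Because Insig1 and the enzymes are read from the same libraries, their ratio does not depend on how libraries are scaled to each other. A difference between libraries that varies with transcript length would stay in the ratio. Over the tested genes with a length, log2 fold change and length correlated at -0.353 (rho). Effective lengths were 2599 bases for Insig1, 2699 for Sqle and 1218 for Fdps, the most abundant enzyme. The part of length in these ratios was not tested. In deposited TPM, which is per transcript length, Insig1 stood at 3.37%, 4.70% and 5.50% of the summed level of the 18 enzymes in the livers labelled iKO, against 12.3%, 15.4% and 12% in WT. The summed enzymes themselves stood at 1989, 2286 and 2242 TPM in the livers labelled iKO, against 2288, 2490 and 3702 TPM in WT. In TMM-scaled CPM the groups overlapped in this sum, at 3446, 2961 and 2772 CPM against 3118, 2590 and 4350 CPM. In TPM, WT 1 and the 2 nearest livers labelled iKO thus had almost the same summed enzyme level, while their Insig1 shares lay apart. Insig1 over Sqle, the squalene epoxidase gene that is also an SREBP2 target, gave a TPM ratio of 1.94, 1.63 and 1.70 in the livers labelled iKO and 6.01, 6.85 and 5.34 in WT. Insig1 over Hmgcs1 gave 0.753, 0.498 and 0.722, against 1.19, 1.76 and 1.47. Insig1 over Insig2 gave 1.42, 1.83 and 3.10, against 1.66, 2.74 and 3.74, and the groups overlapped in this ratio alone of the 3.

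**Figure D4:**
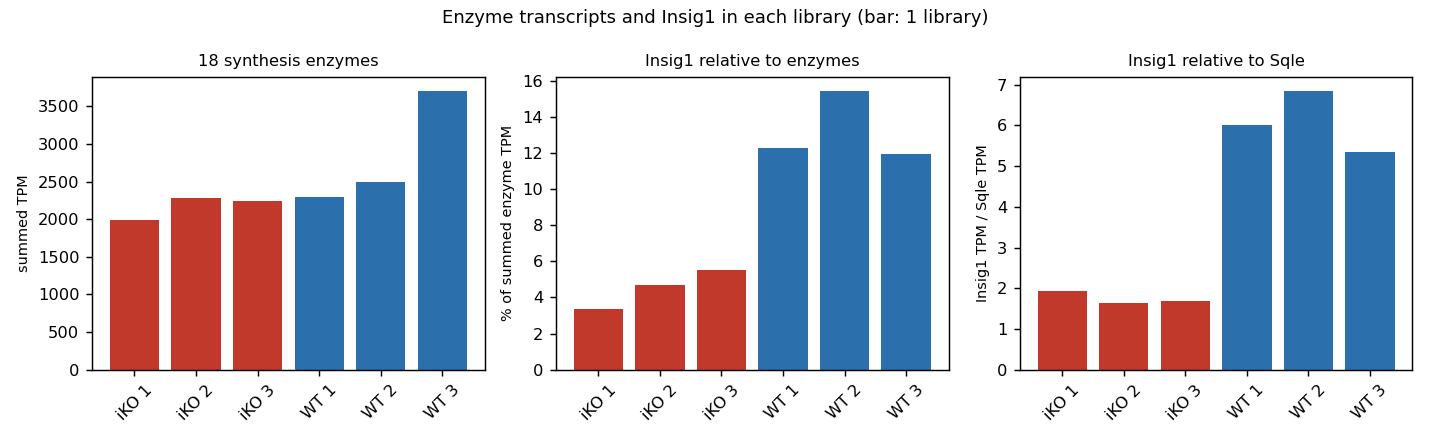
Each bar is 1 library, labelled iKO (red, left) or WT (blue, right). The first panel is the summed TPM of the 18 synthesis enzymes. The second is Insig1 TPM as a percentage of that sum, and the third the ratio of Insig1 to Sqle TPM. Enzyme sums run from 1989 to 2286 TPM in livers labelled iKO and from 2288 to 3702 TPM in WT. In TMM-scaled CPM, not drawn, they overlap (2772 to 3446 against 2590 to 4350 CPM). The Insig1 share is 3.37% to 5.50% against 12% to 15.4%.

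The sequence upstream of the start is shown for the 4 members called lower. Hmgcs1 is added because, of the members searched, its window alone held the letters of the sterol regulatory element. SREBP2 is known to act through such elements close to the start, beside CCAAT boxes bound by NF-Y. Letters are from RefSeq promoter windows of build GRCm38.p6 (the files were made with mm9), 5′ to 3′ on the strand of the gene, ending at the base before the annotated start. For Insig1 the last 49 bases are left out because they overlap an annotated exon; for Insig2 and Pmvk, which have 3 and 2 windows, the window farthest upstream is shown. Capitals mark TCACNCCAC (sterol regulatory element), CCAAT and CACGTG (E-box), on either strand.
Insig1: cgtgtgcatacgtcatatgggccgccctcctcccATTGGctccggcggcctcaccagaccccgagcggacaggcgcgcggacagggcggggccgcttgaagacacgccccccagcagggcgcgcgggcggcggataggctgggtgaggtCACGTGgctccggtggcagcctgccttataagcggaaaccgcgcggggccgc
Insig2: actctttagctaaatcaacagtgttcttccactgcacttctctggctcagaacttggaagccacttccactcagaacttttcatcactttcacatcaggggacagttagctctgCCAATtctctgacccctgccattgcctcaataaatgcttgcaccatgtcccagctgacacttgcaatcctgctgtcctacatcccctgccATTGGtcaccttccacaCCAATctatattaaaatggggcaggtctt
Sc5d: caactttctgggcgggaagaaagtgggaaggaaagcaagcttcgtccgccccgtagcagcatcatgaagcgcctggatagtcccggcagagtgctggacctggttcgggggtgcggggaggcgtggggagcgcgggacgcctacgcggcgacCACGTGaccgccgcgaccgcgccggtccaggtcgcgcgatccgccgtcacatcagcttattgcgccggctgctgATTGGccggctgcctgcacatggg
Pmvk: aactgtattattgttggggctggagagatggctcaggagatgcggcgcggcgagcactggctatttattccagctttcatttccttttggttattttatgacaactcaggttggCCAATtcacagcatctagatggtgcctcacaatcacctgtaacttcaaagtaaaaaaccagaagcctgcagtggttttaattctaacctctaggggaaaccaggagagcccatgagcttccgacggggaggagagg
Hmgcs1: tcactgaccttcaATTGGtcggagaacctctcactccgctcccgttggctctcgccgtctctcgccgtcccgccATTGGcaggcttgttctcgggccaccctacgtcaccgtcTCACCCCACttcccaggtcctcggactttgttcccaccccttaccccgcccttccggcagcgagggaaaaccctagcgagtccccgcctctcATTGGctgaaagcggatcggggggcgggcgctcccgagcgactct
These lie at chr5:28071162-28071362 (plus strand), chr1:121332590-121332839 (minus), chr9:42264301-42264550 (minus), chr3:89454291-89454540 (plus) and chr13:119690101-119690350 (plus). Windows from 250 bases before to 50 after the start were found for 20 of the 26 members (not for Fdps, Fdft1, Sqle, Stard4, Npc1 and Soat2). TCACNCCAC was in the windows of 1 of the 20, Hmgcs1, and of 1.44% of all 27025 genes with a window. CCAAT, in either direction, was in those of 18 of the 20 members and of 41.1% of all genes. The members without it were Acat2 and Scap. CACGTG was in those of 5 of the 20 (Insig1, Sc5d, Hsd17b7, Dhcr7 and Scap) and of 8.09% of all genes; TTANGTAA, the D-box that DBP binds, was in 0 of the 20 and in 2.72% of all genes. CACGTG began 101 bases before the start in Insig1 and 98 bases before it in Sc5d, and TCACNCCAC 137 bases before it in Hmgcs1. For Sc5d and Hmgcs1 the bases just after the start were not found in an annotated transcript of the gene, so these distances are less certain. The search used exact letters, no motif overlapped another in the printed stretches, and a match says only that the letters are there.

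Of the 18 enzymes of the chain, 2 were called lower and 0 higher, beside 8.07% and 7.31% of all tested genes, and for 15 the 95% interval of the fold change included no difference; the exceptions were Pmvk, Sc5d and Tm7sf2. Per transcript length the most abundant were Fdps, Sc5d and Ebp, at a mean of 502, 382 and 260 TPM over the 6 libraries, and the least abundant Hsd17b7 at 20.0 TPM and Idi1 at 24.6 TPM.

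The 7 enzymes from acetyl-CoA to isoprenoids had a median log2 fold change of -0.23, and 1 was called, lower. Pmvk (gene ID 68603), phosphomevalonate kinase, read 47.2, 47.8 and 36.5 CPM in the livers labelled iKO, against 67.2, 59.9 and 108 CPM in WT. The groups did not overlap, with WT 2 nearest to the livers labelled iKO. As log2 fold change the difference was -0.84 ± 0.24 (SE; edgeR adjusted p = 0.0429), or 55.9% of WT (95% interval 38.7% to 80.8%). The call ended without iKO 1 (adjusted p = 0.0743), iKO 2 (0.0776), iKO 3 (0.125), WT 2 (0.063) or WT 3 (0.117, log2 fold change -0.54), and with WT 1 alone the log2 fold change was -0.61 (adjusted p = 0.406).

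Hmgcs1, which condenses acetyl-CoA with acetoacetyl-CoA, read 269, 443 and 339 CPM in the livers labelled iKO, against 499, 348 and 565 CPM in WT, and its groups overlapped (log2 fold change -0.43 ± 0.26 SE; adjusted p = 0.282). Fdps, farnesyl diphosphate synthase, ranged from 319 to 499 CPM in the livers labelled iKO and from 232 to 565 CPM in WT, a WT spread of 2.43-fold and the widest of the tested members. Fdps shares 26.7% of its annotated exon bases with the predicted gene Gm43738 on the same strand, so its level is less certain. The expected counts of Fdps were whole in every library. The log2 fold change of Fdps was 0.08 ± 0.34 (SE; adjusted p = 0.891). Mvd, mevalonate diphosphate decarboxylase, had the widest spread among the livers labelled iKO, at 27.2, 14.0 and 35.4 CPM in the livers labelled iKO, against 28.7, 21.8 and 47.8 CPM in WT. Idi1, which isomerises isopentenyl diphosphate, read 24.6, 57.1 and 30.2 CPM in the livers labelled iKO, against 44.6, 39.4 and 46.2 CPM in WT. Livers iKO 1 and iKO 3 were below all WT livers and iKO 2 was above them, and without iKO 2 Idi1 was called lower (log2 fold change -0.63, adjusted p = 0.0496). The thiolase Acat2 and mevalonate kinase Mvk had log2 fold changes of -0.00 and -0.23 (adjusted p = 0.997 and 0.494), and the groups overlapped for both. Acat2 ran from 94.6 to 109 CPM in the livers labelled iKO and from 75.9 to 129 CPM in WT, and Mvk from 25.6 to 34.2 CPM and from 28.3 to 47.1 CPM.

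In the squalene and lanosterol steps, 0 of 3 enzymes were called by edgeR, 0 had an unadjusted p under 0.05 and DESeq2 called 0, and the median log2 fold change was -0.00. Fdft1, squalene synthase, read 214, 183 and 202 CPM in the livers labelled iKO, against 170, 151 and 278 CPM in WT. Fdft1 shares 18.3% of its exon bases with Ctsb on the opposite strand, and whether strand was used in counting is unknown. Sqle read 82.5, 107 and 114 CPM in the livers labelled iKO, against 77.8, 70.6 and 122 CPM in WT. Lss, lanosterol synthase, read 68.3, 70.9 and 88.3 CPM in the livers labelled iKO, against 87.8, 69.3 and 160.1 CPM in WT. In all 3 genes WT 3 was above every other library, while WT 1 and WT 2 lay within or below the range of the livers labelled iKO. The 95% intervals were 68.3% to 146% of WT for Fdft1, 77.6% to 162% for Sqle and 45.4% to 113% for Lss.

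Among the 8 enzymes from lanosterol to cholesterol the median log2 fold change was 0.01, with 4 values above and 4 below 0, and 1 was called, lower. Sc5d (gene ID 235293), lathosterol oxidase, read 440.0, 442 and 311 CPM in the livers labelled iKO, against 637, 642 and 860.1 CPM in WT. The groups were apart. None of its expected counts was a whole number, so some of its reads may belong to similar genes. As log2 fold change the difference was -0.84 ± 0.24 (SE; edgeR adjusted p = 0.0411), or 55.7% of WT (95% interval 38.7% to 80.3%). This call too ended without iKO 2 (adjusted p = 0.0783), iKO 3 (0.122), WT 1 (0.0579), WT 2 (0.12) or WT 3 (0.125), and with RLE scaling (0.0526). The log2 fold change was -0.67 with WT 1 alone (adjusted p = 0.503).

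Tm7sf2 (gene ID 73166), a sterol C14 reductase, lay in the other direction, at 280.4, 166 and 169 CPM in the livers labelled iKO, against 128, 87.1 and 145 CPM in WT. All 3 livers labelled iKO were above all WT livers, iKO 1 by the widest margin. As log2 fold change the difference was 0.77 ± 0.27 (SE; edgeR adjusted p = 0.0779) and did not pass the threshold, although DESeq2 called it (adjusted p = 0.0312). In deposited TPM the same gene stood at 222, 194 and 203 in the livers labelled iKO and 145, 131 and 186 in WT. Tm7sf2 shares 12.1% of its annotated exon bases with its neighbour Vps51 on the same strand, so its level is less certain. The expected counts of Tm7sf2 were whole in every library. Nsdhl and Ebp, the C4 decarboxylating dehydrogenase and the sterol isomerase, had log2 fold changes of 0.53 (SE 0.26, adjusted p = 0.182) and 0.43 (SE 0.29, adjusted p = 0.337). For both, as for Tm7sf2, iKO 1 was the highest of the 6 libraries, Nsdhl at 223 CPM and Ebp at 466 CPM. That library had the lowest TMM factor, 0.780, and in deposited TPM its Nsdhl value of 116 was below the 124 of WT 3, while its Ebp value of 311 was near the 307 of WT 3. Cyp51, the lanosterol demethylase, read 239, 243 and 231 CPM in the livers labelled iKO, against 199.6, 161 and 294 CPM in WT. Msmo1, the C4 methyl oxidase, Hsd17b7, the 3-keto reductase, and Dhcr7, the 7-dehydrocholesterol reductase, had log2 fold changes of -0.14, -0.11 and -0.19 (adjusted p = 0.647, 0.727 and 0.687), and their groups overlapped. Dhcr7 ran from 132 to 209.9 CPM in the livers labelled iKO and from 137 to 262 CPM in WT.

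WT 3 stood apart in the chain. It was the highest of the 6 libraries for 14 of the 18 enzymes and for 18 of the 25 tested members, or 72.0% of them, where it was the highest for 18.3% of all tested genes. All 18 enzymes were higher in WT 3 than in WT 2, the other library with 0 counts of Ddx3y and Kdm5d. In deposited TPM this held for 17 of 18, and WT 3 was the highest library for 15. The order of WT 1 and WT 2 turned on the scaling, since WT 1 was above WT 2 for 16 enzymes in TMM-scaled CPM and for 4 in TPM. The level in WT 3 over the mean of WT 1 and WT 2 had a median of 1.57 over the 18 enzymes, from 1.10 for Idi1 to 2.16 for Fdps. Insig1 was 1.38 times that mean and Insig2 0.763 times it. Without WT 3 the median log2 fold change of the members was 0.02, against -0.03 over all tested genes, and the members called lower were Insig1 and Insig2, 2 of 25, where 3.68% of all tested genes were called lower. Without iKO 3 or without WT 2 it was Insig1 alone, where 3.46% and 1.98% of all tested genes were called lower. With WT 1 alone as the WT library 0 members were called by edgeR, lower or higher, where 0.566% of all tested genes were called lower and 0.485% higher; 2 were lower and 0 higher at an unadjusted p under 0.05.

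**Figure D5:**
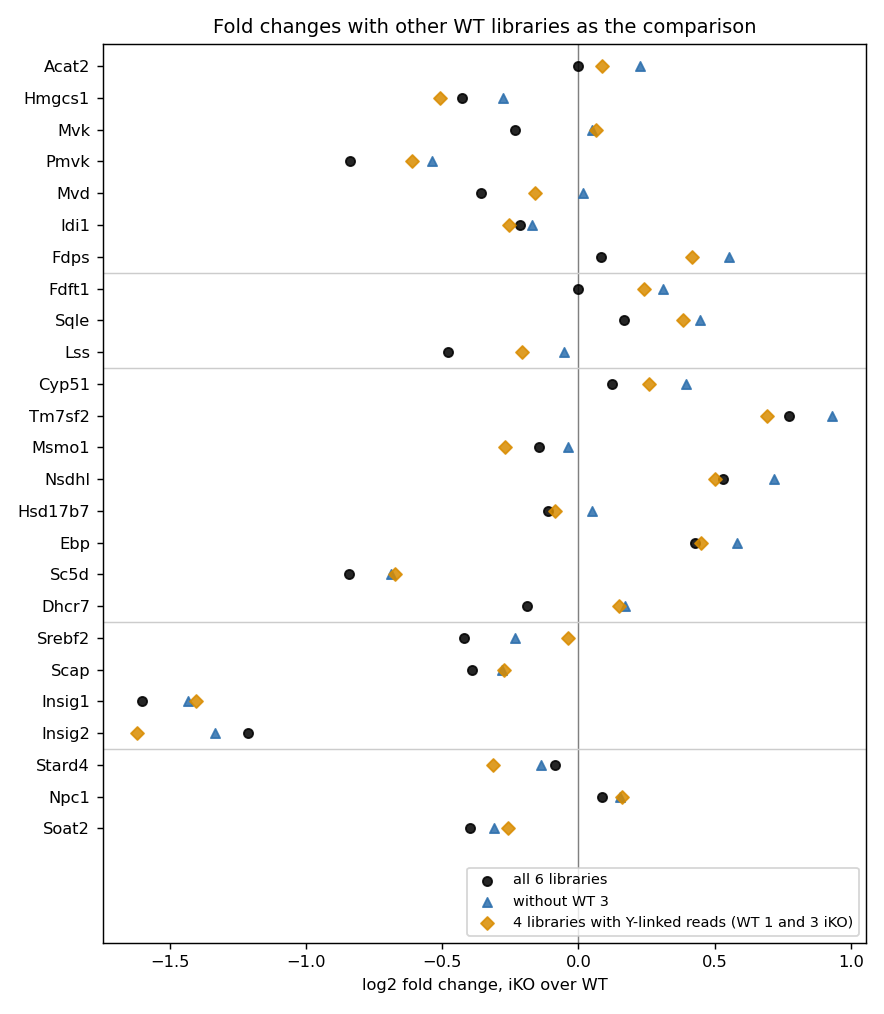
Log2 fold change (x axis, iKO over WT) of each tested member with all 6 libraries (black), without WT 3 (blue) and with the 4 libraries that hold Y-linked reads, WT 1 and the 3 labelled iKO (orange). All 18 enzymes lie to the right of their black point once WT 3 is left out, while Insig1 stays between -1.60 and -1.40 and Insig2 between -1.62 and -1.21.

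Of the sterol handling genes, 0 of 3 tested were called by edgeR, 0 had an unadjusted p under 0.05 and DESeq2 called 0, and the median log2 fold change was -0.09. Soat2, which esterifies cholesterol in hepatocytes, read 35.4, 24.7 and 23.8 CPM in the livers labelled iKO, against 33.7, 35.4 and 41.2 CPM in WT, with iKO 1 inside the WT range (log2 fold change -0.40 ± 0.19 SE; adjusted p = 0.17). It was called lower by limma on log2(FPKM + 1) and without iKO 1. Stard4, a soluble sterol carrier, read 72.9, 81.5 and 86.2 CPM in the livers labelled iKO, against 99.9, 76.1 and 79.2 CPM in WT. Npc1, which passes cholesterol out of lysosomes, read 121, 119.5 and 99.3 CPM in the livers labelled iKO, against 102, 101.5 and 117 CPM in WT. Intervals were 72.1% to 123% of WT for Stard4 and 81.6% to 138% for Npc1. Npc1l1, the sterol importer that mouse liver is known to lack largely, gave 0 counts in each liver labelled iKO and in WT 1 and 1 count in each of WT 2 and WT 3. A count of 0 allows up to 3 counts, between 0.156 and 0.200 CPM in those at 0, so no fold is given; such limits cover counting error only.

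Outside the members, 50 further genes of sterol biology were read in 5 lists, all of them tested. Of these 9 were called lower and 1 higher, beside the 8.07% and 7.31% of all genes, and the median log2 fold change was -0.06. The export and LXR list held 3 lower of 7 (Abca1, Abcg8 and Mylip), 0 higher and a median of -0.64. Abca1 and Abcg8 encode cholesterol exporters, and Mylip a ligase that LXR induces to degrade lipoprotein receptors. Abca1 averaged 66.8 ± 9.80 CPM in livers labelled iKO and 116 ± 24.8 CPM in WT (SD, n = 3 each; adjusted p = 0.0328 by edgeR). Abcg8 averaged 72.8 ± 5.72 and 122 ± 25.4 CPM (adjusted p = 0.032), and Mylip 3.92 ± 1.53 and 9.67 ± 2.91 CPM (adjusted p = 0.029). Each of these 3 calls ended when any of several single libraries was left out. Among those fits the Abca1 call held only without WT 3, that of Abcg8 only without iKO 1 or WT 1, and that of Mylip only without iKO 2 or WT 1; the highest adjusted p, without WT 2, was 0.147, 0.182 and 0.121. With the transcript length offset the calls of Abca1 and Abcg8 ended too (adjusted p = 0.0627 and 0.0674). The log2 fold changes of Abca1, Abcg8 and Mylip were -0.80, -0.75 and -1.30 with all libraries. With WT 1 alone as the WT library they were -1.005, -0.40 and -0.68. Expected counts of Mylip were not whole in any library.

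The list of sterol sensing and SREBP processing held 1 lower of 9 (median -0.12), Srebf1, which encodes the lipogenic relative of SREBP2. It averaged 103 ± 26.8 CPM in livers labelled iKO and 460 ± 181 CPM in WT (SD, n = 3 each), which is -2.15 ± 0.33 (SE) as log2 fold change (edgeR adjusted p = 0.00469). Leaving out any 1 library kept the call, its expected counts were not whole in any library, and with WT 1 alone the value was -1.44 (adjusted p = 0.0891). The proteases that cut SREBP, encoded by Mbtps1 and Mbtps2, were not called. Of 14 uptake, esterification and transport genes (median 0.00) 2 were lower, among them the lysosomal lipase gene Lipa. Lipa averaged 146 ± 25.2 CPM in livers labelled iKO and 292 ± 37.0 CPM in WT (SD, n = 3 each; edgeR adjusted p = 0.0144). The Lipa call ended without iKO 3 (adjusted p = 0.0517) or WT 2 (0.0564). It also ended with the term for Y-linked reads (log2 fold change -0.87, edgeR adjusted p = 0.197). With WT 1 alone as the WT library the log2 fold change of Lipa was -0.86.

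The list of 10 genes of electron and acetyl-CoA supply and partners of the chain (median -0.34) held the 1 rise and 3 falls. Por, the reductase that feeds electrons to Cyp51 and squalene epoxidase as well as to drug-metabolising cytochromes, averaged 827 ± 98.6 CPM in livers labelled iKO and 282 ± 60.0 CPM in WT (SD, n = 3 each; log2 fold change 1.55 ± 0.24 SE; edgeR adjusted p = 0.0045). It was called whichever library was left out and with the term for Y-linked reads (1.95, adjusted p = 0.0368), while with WT 1 alone as the WT library the value was 1.96 and the call ended (adjusted p = 0.0802). Cyb5b, a cytochrome b5 gene, fell by 1.08 on the log2 scale (SE 0.23, adjusted p = 0.0175), a call that ended without iKO 3 (0.0555) or WT 2 (0.0637). It also ended with the term for Y-linked reads (log2 fold change -1.18, edgeR adjusted p = 0.138). With WT 1 alone the log2 fold change of Cyb5b was -1.17. Acly, which makes cytosolic acetyl-CoA, and Mmab, the neighbour that shares its promoter region with Mvk, were also lower (log2 fold change -1.25 and -0.55, adjusted p = 0.0469 and 0.0382). Both calls ended in several fits that left out 1 library. The adjusted p there was up to 0.122 for Acly without iKO 3 and up to 0.145 for Mmab without WT 2. Both ended with the transcript length offset too (edgeR adjusted p = 0.129 and 0.0663). Acly read 671 CPM in WT 3 against 284 and 278 CPM in WT 1 and WT 2, and its log2 fold change without WT 3 was -0.70. With WT 1 alone the log2 fold changes of Acly and Mmab were -0.705 and -0.374. Of the 10 genes of isoprenoid side branches (median 0.12), 0 were called by edgeR and 0 by DESeq2, and 1 had an unadjusted p under 0.05 (higher).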

How the data were processed

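Liver RNA (Trizol extraction, per the labels' protocols) was sequenced in 6 libraries, 3 labelled iKO and 3 WT. The submitters' processing notes name HISAT2 2.0.4, Bowtie2 2.2.5, RSEM 1.2.12 and mm9, with no role or order; no source used here says whether counting used strand. The authors deposited expected counts, FPKM (per length and library size) and TPM (per length, with a fixed total) for each gene. Here expected counts were rounded, filtered with filterByExpr, scaled by TMM and compared in edgeR 4.0.16 under R 4.3.3 (robust quasi-likelihood F test, 13160 genes). "Called" means a Benjamini-Hochberg adjusted p below 0.05. The SE is the log2 fold change divided by the root of the F statistic. Expected counts were not whole (within 0.001) in any library for 7 tested members (Acat2, Idi1, Fdft1, Cyp51, Sc5d, Npc1 and Soat2), a sign of shared reads. Annotated exons of Cyp51, Fdft1, Fdps, Hmgcs1, Idi1, Lss, Npc1, Scap and Tm7sf2 overlap another gene. These overlaps are from the GENCODE M21 annotation, and the annotation used for counting may differ. The labels do not say whether the liver samples came from separate animals. WT 1 differed from WT 2 and WT 3 in Y-linked reads, which samples of 1 animal would not. The p-values measure the spread between these samples, which may be technical among those labelled iKO or between WT 2 and WT 3. Members and lists were chosen with earlier results of these data known; all members are named, and of the other lists every called gene except 1 that is not reported here. Motifs were chosen after the values were seen. Alternatives: RLE scaling; upper-quartile scaling; no low-count filter; DESeq2 1.42.0; limma 3.58.1 (trend) on log2(FPKM + 1), log2(FPKM + 0.1) or log2(TPM + 1); a replicate block; each library left out; a term for Y-linked reads (over 10 counts of Ddx3y and Kdm5d); the 4 libraries with such reads; and a transcript length offset (lowess, span 0.3, lengths from FPKM of at least 0.2). The edgeR script was tested on simulated data, where it recovered 37% of 2-fold and 90% of 4-fold changes. Of its 136 calls there, 9 were false. A gene that was not called may thus still differ.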

Additional observations from a re-analysis of the deposited data

How the results depend on the processing

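Of the 25 tested members, 13 kept their direction in all 17 alternatives, Insig1, Insig2, Sc5d and Pmvk among them. The count of members called lower, 4 with all libraries, was 2 with a replicate block (7.13% of all genes), 1 with the term for Y-linked reads and 0 with the libraries that hold Y-linked reads alone, and ran from 1 to 4 with 1 library left out (1 without iKO 3 or WT 2). The count called higher was 1 with DESeq2 in place of 0. Of other pathway genes, 9 called lower became 5 with the replicate block, 5 with the length offset, 0 with the Y-linked term, 0 in the Y-linked libraries alone, and 1 to 9 with 1 library left out; 1 called higher became 2 with DESeq2 and 0 in the Y-linked libraries alone. Over all tested genes, 962 called higher became 421, 427 and 219 with limma on log2(FPKM + 1), log2(FPKM + 0.1) and log2(TPM + 1), 78 with the Y-linked term, 66 in the Y-linked libraries alone and 228 to 922 with 1 library left out. The 1062 called lower became 106 with the Y-linked term, 77 in the Y-linked libraries alone and 263 to 1096 with 1 library left out. The cause was not tested; the fits on fewer libraries have fewer samples. The median log2 fold change of all genes, -0.02 with TMM, was -0.12, -0.20 and -0.24 in the limma fits, so levels there are shifted down as a whole. Whether the replicate numbers pair the livers is not known. Deviations of same-numbered libraries correlated at 0.201, 0.237 and 0.0392, and those of differently numbered libraries at -0.46 to 0.358. With the block the edgeR calls of Pmvk (adjusted p = 0.0808) and Sc5d (0.0779) ended. Counting error is small at these depths except for Npc1l1.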
